A study of Mus musculus with 48 samples.

Results

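The genes described here are 10 members of the CXC chemokine family: Cxcl1, Cxcl2, Cxcl5, Cxcl9, Cxcl10, Cxcl11, Cxcl12, Cxcl13, Cxcl14 and Cxcl16. They were found by symbol among the non-control probes of a whole-genome mouse array, where 14 of 55681 probes carried one of these names, out of 32053 gene names in all. Cxcl9, Cxcl10, Cxcl11 and Cxcl12 had 2 probes each. Each gene was read from its probe with the highest mean signal, and the other probe is given where it differed.

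Chemokines are small proteins, most of them secreted, that guide leukocytes and other cells through G protein-coupled receptors. Cxcl1, Cxcl2 and Cxcl5 act on Cxcr2 and draw neutrophils. Cxcl9, Cxcl10 and Cxcl11 are induced by interferons and act on Cxcr3, found on T and NK cells. Cxcl12 acts on Cxcr4 and on the scavenging receptor Ackr3, and in the brain it comes largely from vessels and meninges. Cxcl13 draws B cells through Cxcr5, Cxcl16 is a membrane-bound ligand of Cxcr6 that proteases can shed, and the receptor of Cxcl14 is less settled. Transcription of the ligands of Cxcr2 depends largely on NF-kB, and that of the ligands of Cxcr3 also on STAT and IRF factors.

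RNA was measured on 48 one-colour arrays, 6 in each of 8 groups, made up of 2 cell fractions, 2 ages and 2 treatments. Male pups of an outbred strain, swiss in the labels and OF1 in the methods of the study, were injected intraperitoneally with PBS, the vehicle, or with interleukin 1 beta (IL1B, 10 ng per g of body weight) over the first days of life, the last time at postnatal day (P) 5. Brains were taken at P5, 2 h after the last injection according to the labels, or at P10, when the injections had ended. The methods of the study give a longer interval at P5. O4+ cells, the oligodendrocyte lineage around the start of myelination, were first pulled out with magnetic beads, and CD11B+ cells, microglia and other myeloid cells, were then pulled out of what was left of the same suspensions. According to the methods several brains were pooled for a sample, no genotype other than the outbred strain is named, and all groups share sex, injection and sorting. A description field of the P10 samples names another day, and the title, source and stage were followed. The question was how inflammation around birth changes each cell type at both ages.

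The labelled fractions were checked with marker lists, each given as the mean log2 signal of its genes on an array. The 10 oligodendrocyte genes read 14.38 to 15.85 on the O4+ arrays and 9.78 to 12.09 on the CD11B+ arrays. The 15 microglial genes read 15.83 to 16.50 on the CD11B+ arrays and 12.51 to 14.90 on the O4+ arrays, and all 15 were well above background on every O4+ array. Both fractions were therefore enriched rather than pure. Between 54.1% and 66.4% of the probes of an array were well above background, no spot was saturated, and arrays of a group correlated at 0.958 or more.

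The array labelled CD11B+ cells, P10, PBS, replicate 6 stood apart from its group. Of 2599 probes called between IL1B and PBS in CD11B+ cells at P10 without it, it lay nearer the IL1B group on 2179 (83.84%), and the next highest such share, of an IL1B array of O4+ cells at P10, was 37.53%. Ifng, interferon gamma, read 7.35 on it, 1.57 to 2.92 on the other 5 arrays of its group and 6.62 to 7.61 on the IL1B arrays. S100a8, a neutrophil gene, read 15.01 on it, against 12.48 to 12.87 and 13.32 to 14.37. Its label was kept, and the differences of members and lists that rest on its group are given with and without it.

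Promoters of 3 members are shown because these genes rose in O4+ cells at both ages and hold matches to the NF-kB consensus. RefSeq promoters (build GRCm38.p6, the 250 bases before the start) were at hand for 7 of the 10 members and not for Cxcl5, Cxcl11 and Cxcl16. Each line runs 5′ to 3′ on the strand of the gene, and capitals mark a match to the NF-kB consensus or to the interferon-stimulated response element (ISRE, GAAANNGAAA), both strands searched. The Cxcl1 promoter is chr5:90890995-90891244, plus strand, that of Cxcl2 is chr5:90903649-90903898, plus strand, and that of Cxcl10 is chr5:92348890-92349139, minus strand.
Cxcl1: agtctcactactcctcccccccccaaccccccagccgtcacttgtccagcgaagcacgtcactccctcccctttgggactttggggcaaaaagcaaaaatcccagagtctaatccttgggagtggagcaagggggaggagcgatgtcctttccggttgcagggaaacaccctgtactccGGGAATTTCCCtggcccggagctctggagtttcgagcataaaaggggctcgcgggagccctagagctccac
Cxcl2: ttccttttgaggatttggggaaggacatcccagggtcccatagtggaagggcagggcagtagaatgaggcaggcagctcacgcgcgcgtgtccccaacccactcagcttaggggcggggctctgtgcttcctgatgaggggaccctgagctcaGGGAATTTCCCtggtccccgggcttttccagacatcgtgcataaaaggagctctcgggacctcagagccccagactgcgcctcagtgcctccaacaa
Cxcl10: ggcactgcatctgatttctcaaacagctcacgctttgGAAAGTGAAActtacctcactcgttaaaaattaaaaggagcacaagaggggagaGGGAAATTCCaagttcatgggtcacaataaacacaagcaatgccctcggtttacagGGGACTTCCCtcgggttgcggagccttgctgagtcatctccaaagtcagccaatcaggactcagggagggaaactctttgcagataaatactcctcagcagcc

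In Cxcl1 the capitals lie 71 to 61 bases before the start and in Cxcl2 97 to 87, as the same 11 letters, within which the consensus matched on both strands. Cxcl10 held the ISRE 213 to 204 bases before its start and matches to the NF-kB consensus at 159 to 150 and 103 to 94. Cxcl14 held an ISRE and a GAS element (TTCNNNGAA), and Cxcl9, Cxcl12 and Cxcl13 held none of the motifs in this window. Of 32851 mouse promoters searched the same way, 3.90% held the NF-kB consensus, 2.98% the ISRE and 7.02% the GAS element. A match is a description of letters and shows no binding.

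**Figure D1:**
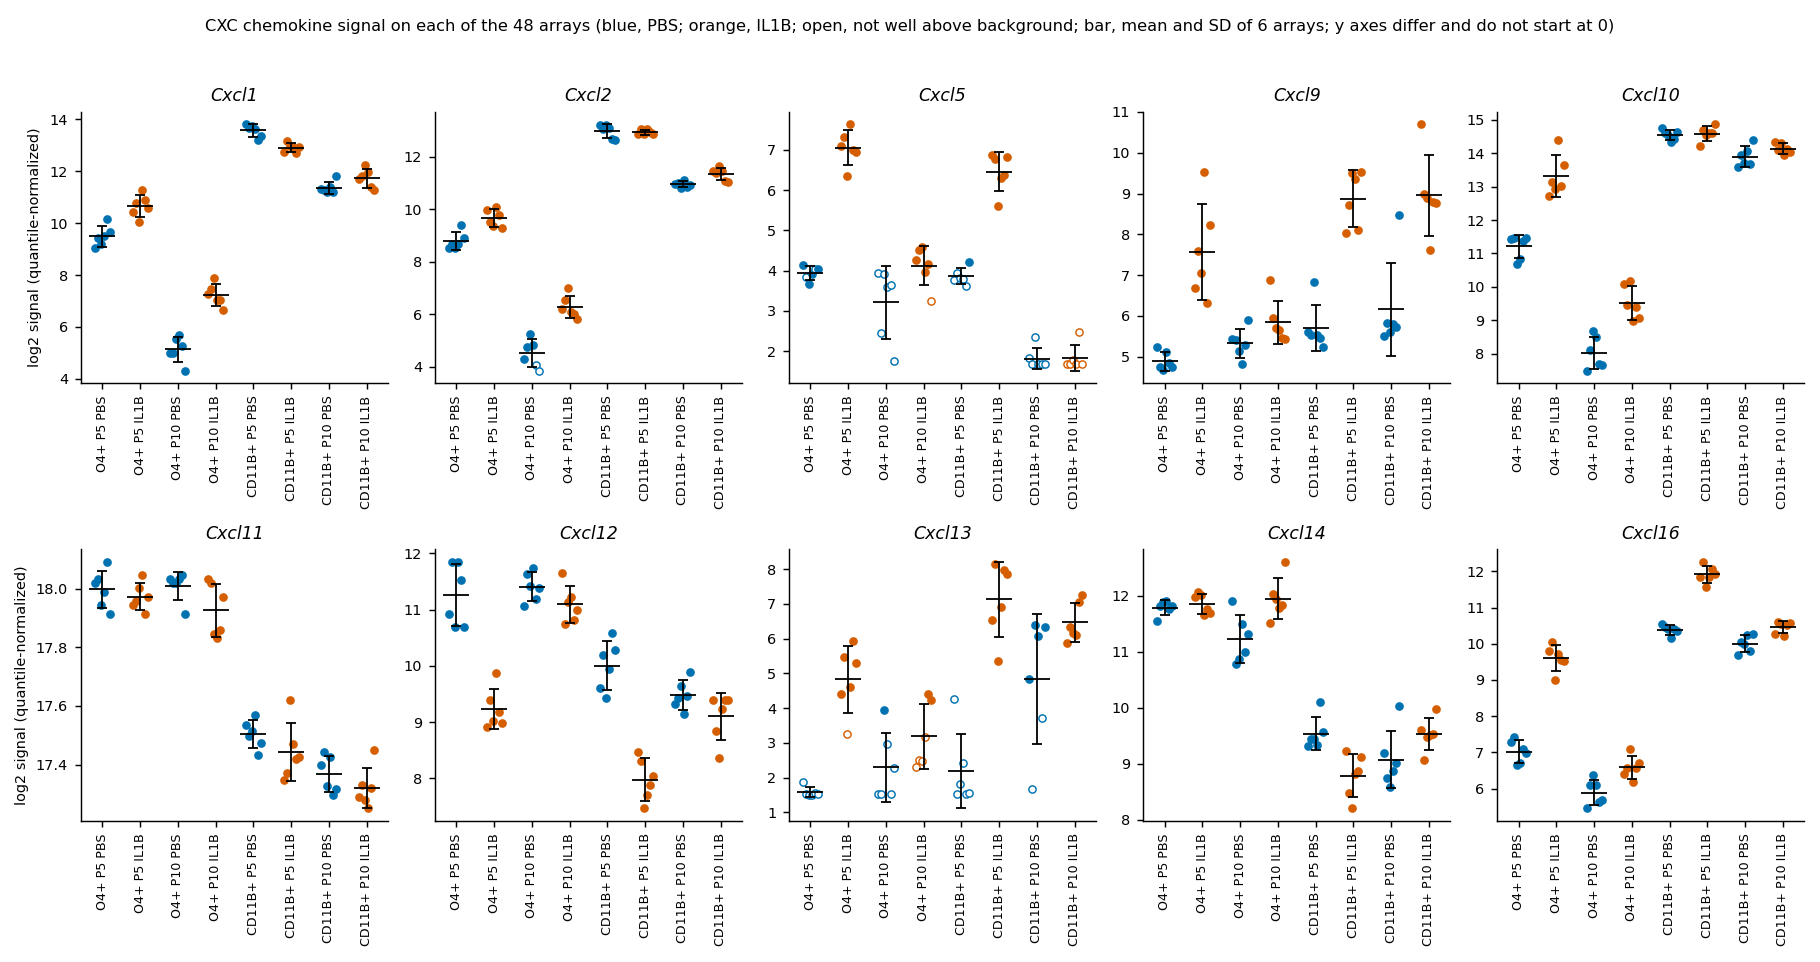
Log2 signal (y axis, own range in each panel) of the 10 CXC chemokine genes on each of the 48 arrays, by group (x axis). Blue points are PBS arrays, orange points IL1B arrays, open points arrays not well above background, and the bars give the mean and SD of 6 arrays; Cxcl1 read 9.03 to 10.16 in O4+ cells after PBS at P5 and 4.32 to 5.67 at P10.

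IL1B changed most of the 10 genes in O4+ cells at P5. A gene was called when its adjusted p (limma, Benjamini-Hochberg over all 55681 probes) was under 0.05 and the medians of the groups differed by more than 1.5-fold. In this comparison 7 of 10 members rose (Cxcl1, Cxcl2, Cxcl5, Cxcl9, Cxcl10, Cxcl13 and Cxcl16) and 1 fell (Cxcl12), while 3.49% of all probes rose and 1.51% fell. The median log2 difference of the members was 1.63 and that of all probes -0.043. At P10 Cxcl1, Cxcl2, Cxcl10 and Cxcl16 rose in O4+ cells and none fell, against 2.61% and 1.51% of all probes, with a median of 0.80 over the members and -0.021 over all probes.

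Among CD11B+ cells at P5, Cxcl5, Cxcl9, Cxcl13 and Cxcl16 rose and Cxcl1, Cxcl12 and Cxcl14 fell, against 3.98% of all probes higher and 5.01% lower. Cxcl9 alone was called at P10 in this fraction, against 1.02% of all probes higher and 0.988% lower. Without replicate 6 of the PBS group, Cxcl9 and Cxcl14 rose, and 2.46% of all probes were higher and 2.20% lower. In bulk samples such as these, fewer cells of a type and less RNA per cell cannot be told apart.

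**Figure D2:**
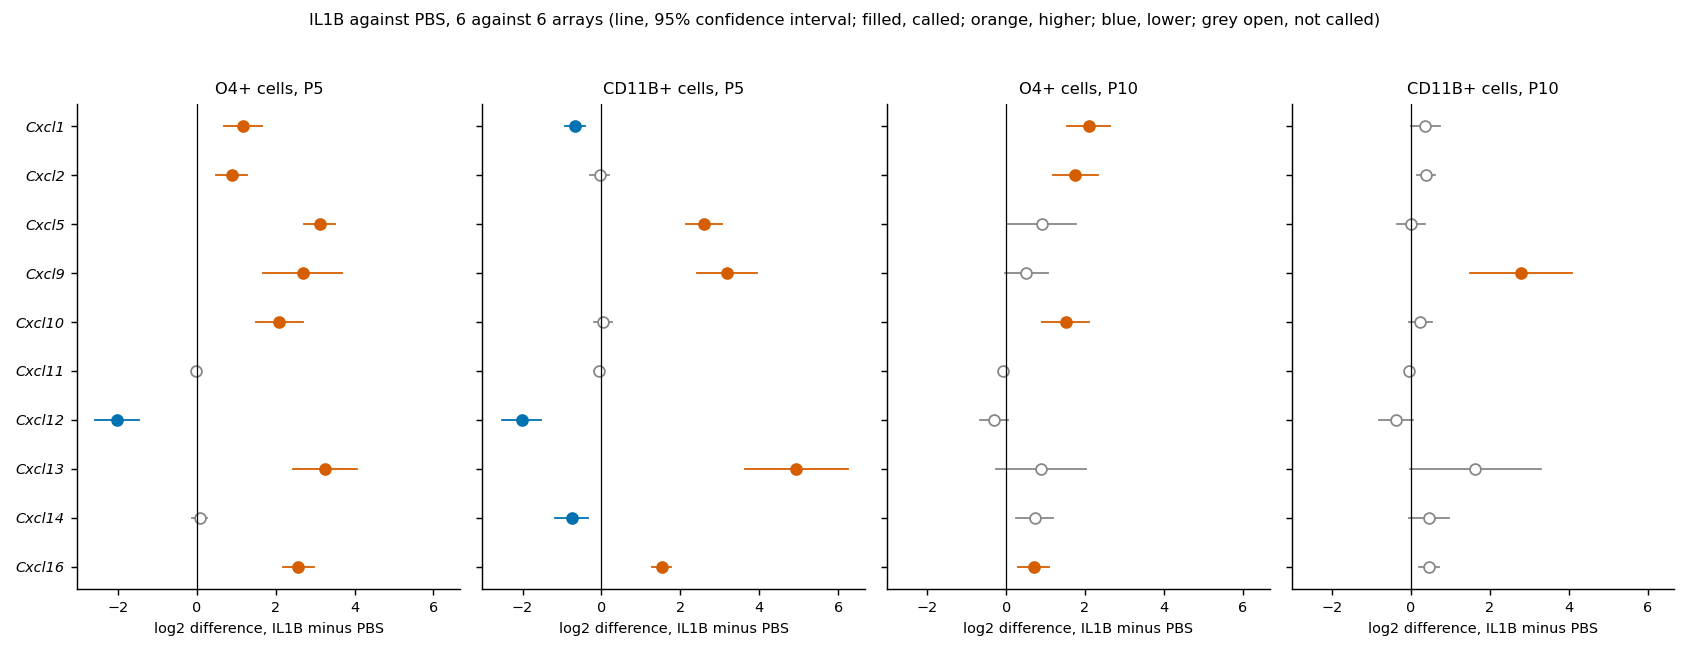
Log2 difference between IL1B and PBS (x axis) of the 10 genes, 1 panel for each fraction and age; points are limma estimates over 6 against 6 arrays, lines 95% confidence intervals, and filled points called genes. Cxcl12 lies at -2.03 in both fractions at P5, and Cxcl5, Cxcl9, Cxcl13 and Cxcl16 lie to the right of 0 in both.

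Markers of other cell types differed between the treatments. Shares of all probes called are those given above for the same comparisons. The mean log2 level of 7 neutrophil and monocyte genes was 3.42 to 4.25 in O4+ cells after PBS and 5.95 to 9.46 after IL1B at P5 (7 of 7 called higher), and 2.90 to 4.34 and 4.65 to 6.11 at P10 (5 of 7). After PBS Ltf, Ngp and Ccr2 of this list were above background on no O4+ array. In CD11B+ cells the list read 9.44 to 10.66 and 13.24 to 13.88 at P5 (7 of 7), and 9.74 to 12.15 and 10.86 to 11.77 at P10 (0 of 7, median difference 1.35). The 12.15 is that of replicate 6. Without it the PBS arrays read 9.74 to 10.23 and 6 of 7 were called higher (median difference 1.74).

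The 15 microglial genes read 13.32 to 13.90 after PBS and 14.49 to 14.90 after IL1B in O4+ cells at P5 (10 of 15 called higher), and 12.51 to 13.18 and 12.88 to 13.52 at P10 (7 of 15). The 8 endothelial genes read 10.31 to 11.35 after PBS and 9.80 to 10.34 after IL1B in O4+ cells at P5, and 9.62 to 10.25 and 8.81 to 9.39 in CD11B+ cells, with 6 of 8 called lower in each. The 6 T and NK cell genes read 6.12 to 6.61 and 7.03 to 8.06 in CD11B+ cells at P5 (3 of 6 called higher), and 5.21 to 7.83 and 7.06 to 7.82 at P10 (2 of 6). Replicate 6 gave the 7.83, and without it the PBS arrays read 5.21 to 5.80 and 4 of 6 were called higher.

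Other lists moved in part. In O4+ cells 3 of 6 border-associated macrophage genes were called higher at P5, and at P10 4 of 7 astrocyte, 3 of 9 mural cell and fibroblast and 2 of 4 erythroid genes. Lower calls in CD11B+ cells at P5 took in 3 of 15 microglial and 2 of 9 mural cell and fibroblast genes. At P10 1 of 7 astrocyte and 0 of 9 mural cell and fibroblast and 0 of 4 erythroid genes were called higher in CD11B+ cells, and without replicate 6 these counts were 3, 4 and 3, while lower calls of the 10 oligodendrocyte genes went from 2 to 4. The part of these cells in the differences described here was not tested.

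The share of higher genes among all calls depended on the scaling of the arrays. It was 69.8% in O4+ cells at P5, 63.4% in O4+ cells at P10, 44.3% in CD11B+ cells at P5 and 50.9% in CD11B+ cells at P10. Scaling to the 75th percentile gave 42.6% in O4+ cells at P10 and 54.6% in CD11B+ cells at P5, and the deposited matrix gave 58.3%, 51.6% and 64.7% in O4+ cells at P5, O4+ cells at P10 and CD11B+ cells at P10. Measured from the median of all probes, which these scalings moved by -0.17 to 0.13 in the comparisons of IL1B with PBS, no called member changed direction.

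The ligands of Cxcr2 come first. Cxcl1, a neutrophil attractant that many stimulated cells make, is read by a probe at chr5:91321845-91321904 of build mm9. At P5 its lowest, median and highest log2 signals in O4+ cells were 9.03, 9.47 and 10.16 after PBS and 10.04, 10.67 and 11.27 after IL1B. The groups overlapped slightly, and Cxcl1 rose 2.30-fold, with a log2 difference of 1.17 ± 0.22 (SE) and an adjusted p of 0.00361 by limma. At P10 it read 4.32, 5.15 and 5.67 after PBS and 6.67, 7.16 and 7.89 after IL1B. These groups did not overlap, and it rose 4.03-fold (2.09 ± 0.25, adjusted p = 0.00132 by limma).

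The same gene fell in CD11B+ cells at P5, from 13.21, 13.66 and 13.82 after PBS to 12.69, 12.93 and 13.16 after IL1B. The groups did not overlap, and the difference was -0.67 ± 0.12 with an adjusted p of 0.00165 by limma. At P10 it read 11.19, 11.29 and 11.82 after PBS and 11.28, 11.74 and 12.26 after IL1B, an uncalled difference of 0.37 (adjusted p = 0.23 by limma), or 0.46 without replicate 6 (adjusted p = 0.0935). The highest PBS value was that of replicate 6, and the other 5 read 11.19 to 11.39.

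Cxcl2, the closest relative of Cxcl1 among the members, showed a like order of levels (probe at chr5:91334534-91334593). In O4+ cells at P5 it read 8.50, 8.67 and 9.39 after PBS and 9.29, 9.64 and 10.08 after IL1B, with slightly overlapping ranges, and it rose 1.97-fold (0.89 ± 0.18, adjusted p = 0.00557 by limma). At P10 it read 3.86, 4.54 and 5.27 after PBS, above background on 4 of 6 arrays, and 5.82, 6.14 and 7.0 after IL1B. Here the groups lay apart, and the rise was 2.99-fold (1.75 ± 0.26, adjusted p = 0.00307 by limma). CD11B+ cells at P5 read 12.64, 13.06 and 13.22 after PBS and 12.84, 12.90 and 13.04 after IL1B, one range inside the other, with a difference of -0.047 (95% interval -0.29 to 0.20). At P10 the difference was 0.39 (adjusted p = 0.051 by limma), or 0.39 without replicate 6 (adjusted p = 0.0505).

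Both genes were lower at P10 than at P5 after PBS, in both fractions. In O4+ cells Cxcl1 differed by -4.36 (0.05 of the P5 median, adjusted p = 1.27e-07 by limma) and Cxcl2 by -4.26 (0.0577, adjusted p = 1.45e-07). CD11B+ cells differed by -2.21 for Cxcl1 and -2.03 for Cxcl2, or by -2.30 and -2.03 without replicate 6. Ages were never on the same slide or scan day, so that age and array batch cannot be told apart. Several marker lists were lower at P10 in O4+ cells: 12 of 15 microglial genes (12.51 to 13.18 against 13.32 to 13.90), 8 of 9 mural cell and fibroblast genes (8.66 to 9.34 against 9.56 to 10.57), 5 of 8 endothelial and 3 of 4 erythroid genes. Of the oligodendrocyte genes 4 of 10 were higher and 1 lower there, and of all probes 9.14% were lower and 8.09% higher. In CD11B+ cells 6 of 8 endothelial and 4 of 6 border-associated macrophage genes were lower and 7 of 10 oligodendrocyte genes higher, the same counts as without replicate 6. Of all probes 3.47% were lower and 4.49% higher in this fraction, or 3.95% and 4.73% without replicate 6. The part of these cells in the differences between the ages was not tested.

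O4+ cells had less of both genes than CD11B+ cells in all 4 comparisons of the fractions. After PBS at P5 the differences were -4.08 for Cxcl1 and -4.20 for Cxcl2, and at P10 they were -6.23 and -6.43 (-6.13 and -6.43 without replicate 6). After IL1B they were -2.23 and -3.26 at P5 and -4.50 and -5.06 at P10. No slide held both fractions after PBS at P10, so that fraction and slide cannot be told apart in that comparison, for these or the other members. The fractions differed in their response too: that of O4+ cells minus that of CD11B+ cells was 1.84 for Cxcl1 and 0.93 for Cxcl2 at P5, and 1.73 and 1.36 at P10 (1.63 and 1.36 without replicate 6). After normexp background correction the difference of Cxcl2 at P10 was 0.35 and no longer called (adjusted p = 0.166 by limma).

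Cxcl5, whose product draws neutrophils and is often made by epithelial cells and fibroblasts, was near background after PBS (probe at chr5:91190490-91190549). At P5 it read 3.65, 3.97 and 4.14 in O4+ cells after PBS, above background on 4 of 6 arrays, and 6.34, 7.04 and 7.64 after IL1B. In CD11B+ cells it read 3.63, 3.80 and 4.22 after PBS, above background on 1 of 6, and 5.60, 6.58 and 6.88 after IL1B. The groups lay apart in both fractions, with rises of 8.43-fold (3.12 ± 0.18, adjusted p = 1.42e-06) and 6.90-fold (2.59 ± 0.21, adjusted p = 5.44e-06 by limma). The rise in CD11B+ cells is no exact size, since its PBS group was mostly at background.

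At P10 Cxcl5 lay at or near background. O4+ cells read 1.75, 3.61 and 3.95 after PBS, not well above background on any array, and 3.23, 4.21 and 4.60 after IL1B, an uncalled rise of at least 1.19-fold (adjusted p = 0.186 by limma). It was called with all 8 groups in 1 fit (adjusted p = 0.0151) and with scan day as a block (adjusted p = 0.0321). CD11B+ cells read 1.67, 1.68 and 2.34 after PBS and 1.67, 1.68 and 2.46 after IL1B, below background on all 12 arrays. The fits called the response at P10 lower than that at P5 in O4+ cells (adjusted p = 0.00185) and in CD11B+ cells (adjusted p = 8.95e-07, or 1.81e-06 without replicate 6, by limma), but with the PBS groups at P10 below background the size of this difference was not measured. Comparisons by age and by fraction called Cxcl5 where at least one group was below background on 5 or 6 of its arrays, and no fold is given for them, save that O4+ cells after IL1B at P10 were at least 1.03-fold higher than CD11B+ cells. An at-least value sets the brighter mean against the lowest signal well above background in the dimmer group. After IL1B at P5, with all 12 arrays above background, the fractions differed by 0.60, which was not called. It was called under 75th percentile scaling (0.65, adjusted p = 0.0117) and with quantiles set within a fraction (1.12, adjusted p = 0.00213 by limma). The latter also called Cxcl5 higher in O4+ cells after PBS at P5 (adjusted p = 0.00103 by limma).

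The ligands of Cxcr3 follow. Cxcl9, a target of interferon gamma, is read by probes at chr5:92752796-92752855 and chr5:92752191-92752250, the first of which had the higher mean. On that probe O4+ cells at P5 read 4.67, 4.79 and 5.25 after PBS and 6.32, 7.33 and 9.54 after IL1B. CD11B+ cells at P5 read 5.25, 5.54 and 6.83 after PBS and 8.03, 9.04 and 9.54 after IL1B. Each pair of groups lay apart, with rises of 5.89-fold (2.68 ± 0.46, adjusted p = 0.00199) and 11.6-fold (3.17 ± 0.35, adjusted p = 5.84e-05 by limma).

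Cxcl9 was the member that still rose in CD11B+ cells at P10, where it read 5.51, 5.76 and 8.48 after PBS and 7.61, 8.84 and 10.70 after IL1B. The PBS value of 8.48 is that of replicate 6, the others lie at or below 5.83, and the groups overlap through it alone. The rise was 8.46-fold (2.80 ± 0.59, adjusted p = 0.0254 by limma), and 8.64-fold (3.26 ± 0.43, adjusted p = 0.00179) without replicate 6. The call with all arrays was lost when IL1B replicate 3 or 5 or PBS replicate 1, 2, 3 or 4 was left out (adjusted p 0.0506 to 0.0627). Ifng rose beside it, by 4.10 on the log2 scale (adjusted p = 0.0263 by limma), where replicate 6 was the one PBS array above background, and at least 8.40-fold without it.

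In O4+ cells at P10 the 2 Cxcl9 probes differed. The first read 4.83, 5.35 and 5.89 after PBS and 5.45, 5.67 and 6.87 after IL1B, an uncalled difference of 0.51 (adjusted p = 0.242 by limma). The second read 1.53, 1.56 and 1.58 after PBS, above background on none, and 2.73, 5.44 and 7.05 after IL1B, above background on 5 of 6. On it the gene rose at least 2.50-fold (adjusted p = 0.00299 by limma). The second probe rose in the other 3 comparisons as well, at least 27.3-fold in O4+ cells at P5 and without an exact size in CD11B+ cells, where 1 of 6 PBS arrays was above background at each age (adjusted p = 0.00018 at P5 and 0.0231 at P10 by limma). At P10 that array was replicate 6, and without it the rise was at least 46.5-fold.

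The response of Cxcl9 was smaller at P10 than at P5 in O4+ cells (-2.17, adjusted p = 0.00846 by limma). No size is given for differences between responses on the second probe, with its PBS groups at background on all or 5 of 6 arrays. In CD11B+ cells this difference was -0.37 (95% interval -1.82 to 1.08), or 0.093 without replicate 6. At P10 the response of O4+ cells lay below that of CD11B+ cells by -2.29 on the first probe (adjusted p = 0.0337), or -2.75 without replicate 6 (adjusted p = 0.00144), and the second was not called (adjusted p = 0.325 by limma), or was without replicate 6 (adjusted p = 0.00587). The level in O4+ cells lay below that in CD11B+ cells after PBS at P5 (-0.81, adjusted p = 0.0111) and after IL1B at P10 (-3.12, adjusted p = 4.87e-05), and was not called in the other 2 comparisons of the fractions, nor at P10 after PBS without replicate 6 (-0.36, adjusted p = 0.0842). The call after PBS at P5 ended with all 8 groups in 1 fit (adjusted p = 0.125), with quantiles set within a fraction (-0.30, adjusted p = 0.345), after normexp (-0.34), on the second probe (adjusted p = 0.125) and with the slide as a block (-0.54, adjusted p = 0.485), which also ended that after IL1B at P10 (adjusted p = 0.0504 by limma). After IL1B at P5 (-1.30) it was called under 75th percentile scaling (adjusted p = 0.0461), with all 8 groups in 1 fit (0.0108), in the deposited matrix (0.0308) and among probes above background (0.0332 by limma).

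Cxcl10, a chemokine of interferon and NF-kB responses, is read by a probe at chr5:92775781-92775840. At P5 O4+ cells read 10.70, 11.41 and 11.47 after PBS and 12.73, 13.08 and 14.40 after IL1B. At P10 it read 7.50, 7.89 and 8.68 after PBS and 8.99, 9.42 and 10.18 after IL1B. At neither age did the groups overlap, and the rises were 3.19-fold (2.10 ± 0.27, adjusted p = 0.000331) and 2.86-fold (1.51 ± 0.27, adjusted p = 0.00631 by limma).

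Cxcl10 was not called in CD11B+ cells, which read 14.33, 14.57 and 14.76 after PBS and 14.21, 14.59 and 14.87 after IL1B at P5. The difference was 0.037 with a 95% interval of -0.20 to 0.27, and at P10 it was 0.24 (-0.05 to 0.54), or 0.34 without replicate 6 (0.11 to 0.58, adjusted p = 0.0585 by limma). The response of O4+ cells exceeded that of CD11B+ cells by 2.06 at P5 (adjusted p = 5.38e-05) and 1.26 at P10 (adjusted p = 0.014 by limma), or 1.16 at P10 without replicate 6. A second Cxcl10 probe, annotated to a cDNA clone (chr5:92776616-92776675), went the other way in CD11B+ cells at P5, where it fell by 0.83 (adjusted p = 0.00439). In O4+ cells it was not called at P5 (0.57, adjusted p = 0.0542) and rose at P10 (1.30, adjusted p = 0.0342). On this probe the response of O4+ cells minus that of CD11B+ cells at P10 was 0.91 and not called (adjusted p = 0.176 by limma). Its response in CD11B+ cells at P10 minus that at P5 was 1.22 (adjusted p = 0.000773 by limma), against an uncalled 0.21 on the first probe.

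Between P5 and P10 after PBS Cxcl10 fell by 3.19 in O4+ cells, to 0.0885 of the P5 median, and by 0.65 in CD11B+ cells, or 0.75 without replicate 6, a call lost with scan day as a random block (adjusted p = 0.132 by limma). O4+ cells had less of it than CD11B+ cells in each comparison of the fractions, with differences of -3.33 and -5.87 after PBS at P5 and P10 (-5.77 at P10 without replicate 6) and of -1.27 and -4.61 after IL1B.

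Cxcl11, the remaining ligand of Cxcr3, is read by a probe that shares sequence with other probes (chr5:92788567-92788626). Its bases 15 to 34 are shown because probes named Elk1, Med16, Ndor1 and Glrx2 hold the same run.
Cxcl11 probe, bases 15 to 34: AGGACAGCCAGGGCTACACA

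In all, 7 probes of other names shared some run of 20 bases with it on either strand, and 14.6% of all probes shared one with a probe of another name. No other probe of the members did. The signal of the Cxcl11 probe can therefore not be tied to this gene. It read 17.25 to 18.09 on the 48 arrays and differed between IL1B and PBS by -0.084 to -0.025 in the 4 comparisons, none called. In the comparisons of the fractions at P10 it was called higher in O4+ cells (0.64 after PBS, 0.63 without replicate 6, and 0.61 after IL1B), a direction that turned after IL1B under scaling to the 75th percentile (-0.25) and in the deposited matrix (-0.42). The second probe (chr5:92788640-92788699) was called in none of the 4 comparisons of IL1B with PBS, and without replicate 6 it was lower in CD11B+ cells at P10 (-0.72, adjusted p = 0.011 by limma).

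Cxcl12, the homeostatic ligand of Cxcr4 and Ackr3, fell in both fractions at P5 (probe at chr6:117131227-117131286). O4+ cells read 10.69, 11.23 and 11.85 after PBS and 8.92, 9.10 and 9.87 after IL1B. CD11B+ cells read 9.42, 10.07 and 10.58 after PBS and 7.46, 7.96 and 8.47 after IL1B. The groups lay apart in each, and the falls were to 0.224 of the PBS median (-2.03 ± 0.25, adjusted p = 0.000258) and to 0.231 (-2.03 ± 0.22, adjusted p = 6.45e-05 by limma). The endothelial list was lower beside both.

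At P10 Cxcl12 was not called in either fraction. O4+ cells read 11.07, 11.40 and 11.75 after PBS and 10.74, 11.06 and 11.66 after IL1B (-0.31, 95% interval -0.67 to 0.05), and CD11B+ cells 9.15, 9.44 and 9.90 and 8.35, 9.31 and 9.40 (-0.38, -0.81 to 0.05, or -0.30 without replicate 6). The response at P10 minus that at P5 was 1.71 in O4+ cells (adjusted p = 0.000724) and 1.65 in CD11B+ cells (adjusted p = 0.000517 by limma), or 1.73 without replicate 6. The 95% interval of the difference between the fractions in the response at P5 was -0.72 to 0.72.

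On the first probe O4+ cells had more Cxcl12 than CD11B+ cells in all 4 comparisons. The differences were 1.25 after either treatment at P5, 1.92 after PBS at P10 (2.01 without replicate 6) and 1.99 after IL1B at P10. With the slide as a block the difference was no longer called after PBS at P5 (0.41, adjusted p = 0.519), nor after IL1B at P5 (0.94, adjusted p = 0.132) and P10 (1.60, adjusted p = 0.0553 by limma). A second probe, annotated to another transcript of the gene (chr6:117125026-117125085), did not follow the first. Between the fractions it differed by 0.015 and 0.16 after PBS at P5 and P10 and by -0.091 and -0.44 after IL1B, none called (adjusted p 0.129 to 0.982 by limma). Its differences between IL1B and PBS at P5 were -0.41 in O4+ cells and -0.30 in CD11B+ cells, neither called. After IL1B it rose in CD11B+ cells at P10 by 0.98 (adjusted p = 0.0482), or 1.16 without replicate 6. After PBS it was lower at P10 than at P5, by -1.48 in O4+ cells and -1.62 in CD11B+ cells (-1.80 without replicate 6), where the first probe differed by 0.15 and -0.52 and was not called. The response of the second probe at P10 minus that at P5 was 0.79 in O4+ cells (adjusted p = 0.39) and 1.28 in CD11B+ cells (adjusted p = 0.0661 by limma), neither called.

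Cxcl13, the B cell attractant, was at background after PBS at P5 in both fractions (probe at chr5:96389861-96389920). O4+ cells read 1.5, 1.53 and 1.89 after PBS, above background on none, and 3.25, 4.95 and 5.92 after IL1B, above it on 5 of 6. CD11B+ cells read 1.53, 1.69 and 4.26 after PBS, above background on none, and 5.35, 7.39 and 8.15 after IL1B, above it on all 6. The groups lay apart in both, with a rise of at least 2.62-fold in O4+ cells (adjusted p = 0.000141) and at least 8.88-fold in CD11B+ cells (adjusted p = 0.000112 by limma).

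At P10 Cxcl13 was not called after IL1B. O4+ cells read 1.52, 1.91 and 3.95 after PBS and 2.31, 2.84 and 4.39 after IL1B, above background on 1 and 2 of 6 arrays. CD11B+ cells read 1.67, 5.45 and 6.41 after PBS, above background on 4 of 6, and 5.89, 6.26 and 7.27 after IL1B, a difference of 1.63 (adjusted p = 0.229), or 1.93 without replicate 6 (adjusted p = 0.138 by limma). The fits called the response at P10 lower than that at P5 in O4+ cells (adjusted p = 0.0188, or 0.0688 with all 8 groups in 1 fit) and in CD11B+ cells (adjusted p = 0.0226, or 0.0375 without replicate 6, by limma). The size of this difference was not measured, since the PBS groups at P5 were at background.

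After PBS, CD11B+ cells at P10 had at least 1.81-fold more Cxcl13 than at P5 (adjusted p = 0.0439 by limma). This call was lost by the methods' test (adjusted p = 0.0608), with scan day or slide as a random block (0.353 and 0.156), without replicate 6 (adjusted p = 0.0853, a bound of 1.47-fold) and without any of 8 other arrays: PBS replicates 1, 3 and 4 at P10 and 2 to 6 at P5. Cxcl13 was lower in O4+ than in CD11B+ cells in 3 of 4 comparisons of the fractions (after PBS at P10 -2.54, adjusted p = 0.02, or -2.24 without replicate 6, adjusted p = 0.0455, and 0.122 with the slide as a random block, by limma), and was below background on all 12 arrays in the fourth, after PBS at P5. In O4+ cells after PBS at P10 it was above background on 1 of 6 arrays, so that these values are no exact sizes.

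Cxcl14, found in epithelia, some neurons and oligodendrocyte precursors, was higher in O4+ cells throughout (probe at chr13:56390078-56390137). O4+ cells at P5 read 11.54, 11.82 and 11.90 after PBS and 11.65, 11.87 and 12.06 after IL1B, a difference of 0.071 (95% interval -0.12 to 0.27). CD11B+ cells at P5 read 9.31, 9.44 and 10.11 after PBS and 8.20, 8.84 and 9.22 after IL1B. These groups lay apart, and the fall was to 0.660 of the PBS median (-0.75 ± 0.19, adjusted p = 0.0144 by limma). It was lost without IL1B replicate 2, 3 or 4, where the fold of medians dropped under the threshold, as it did after normexp (-0.66), and with scan day as a block (adjusted p = 0.0623 by limma). The 10 oligodendrocyte genes read 10.18 to 10.71 in this fraction after PBS and 9.78 to 10.22 after IL1B (2 called higher, 3 lower), and their part in the fall was not tested.

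At P10 O4+ cells read 10.78, 11.16 and 11.89 after PBS and 11.50, 11.88 and 12.60 after IL1B, an uncalled difference of 0.72 (adjusted p = 0.0556), which passed without IL1B replicate 1 (adjusted p = 0.0404) or PBS replicate 1 (adjusted p = 0.0205 by limma). It also passed under 75th percentile scaling (adjusted p = 0.0462), in the deposited matrix (0.0411), after normexp (0.0457), among probes above background (0.0257), with all 8 groups in 1 fit (0.00897) and with scan day as a block (0.0318 by limma). CD11B+ cells read 8.58, 8.95 and 10.03 after PBS and 9.07, 9.52 and 9.97 after IL1B, a difference of 0.45 (adjusted p = 0.273). The highest PBS value was that of replicate 6, and without it Cxcl14 rose 1.57-fold (0.64 ± 0.15, adjusted p = 0.023 by limma). The response of CD11B+ cells at P10 minus that at P5 was 1.21 (adjusted p = 0.0076), or 1.40 without replicate 6. After PBS Cxcl14 fell by 0.56 in O4+ cells between P5 and P10 (to 0.637 of the P5 median, adjusted p = 0.0249 by limma), a call lost without PBS replicate 2, 3 or 5 at P10 or 3 or 4 at P5, under 75th percentile scaling (-0.36, adjusted p = 0.104), in the deposited matrix (adjusted p = 0.0942) and with slide or scan day as a random block (adjusted p = 0.174 by limma).

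In the comparisons of the fractions, Cxcl14 was higher in O4+ cells by 2.25 and 2.15 after PBS at P5 and P10 (2.34 at P10 without replicate 6) and by 3.08 and 2.42 after IL1B. The response at P5 was more positive in O4+ cells by 0.82 (adjusted p = 0.013 by limma).

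Cxcl16, the transmembrane ligand of Cxcr6 that also binds oxidised lipids, rose in both fractions at P5 (probe at chr11:70267780-70267839). O4+ cells read 6.64, 7.04 and 7.44 after PBS and 8.99, 9.62 and 10.04 after IL1B. CD11B+ cells read 10.15, 10.41 and 10.54 after PBS and 11.58, 11.88 and 12.27 after IL1B. No arrays overlapped, and the rises were 6.00-fold (2.58 ± 0.18, adjusted p = 5.14e-06) and 2.78-fold (1.53 ± 0.11, adjusted p = 2.4e-06 by limma). The difference between these responses, 1.05, was itself called (adjusted p = 0.00213), and in the deposited matrix it was not (0.90, adjusted p = 0.052 by limma).

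At P10 Cxcl16 read 5.46, 5.88 and 6.37 after PBS and 6.17, 6.58 and 7.10 after IL1B in O4+ cells, overlapping groups with a rise of 1.60-fold (0.70 ± 0.18, adjusted p = 0.0312 by limma). The call was lost without IL1B replicate 2, 3, 5 or 6 or PBS replicate 1, 5 or 6 (adjusted p 0.0539 to 0.0683), and after normexp the difference was 0.39 and under the fold threshold. CD11B+ cells read 9.69, 10.02 and 10.27 after PBS and 10.22, 10.54 and 10.59 after IL1B, a difference of 0.45 (adjusted p = 0.0427) that stayed under the fold threshold at 1.43-fold, or 1.46-fold without replicate 6. The response at P10 minus that at P5 was -1.88 in O4+ cells (adjusted p = 5.89e-05) and -1.08 in CD11B+ cells (adjusted p = 5.6e-05 by limma), or -1.02 without replicate 6. After PBS Cxcl16 fell by 1.13 between P5 and P10 in O4+ cells (to 0.453 of the P5 median), and O4+ cells had less of it than CD11B+ cells in all 4 comparisons (-3.37, -4.12, -2.32 and -3.87 after PBS at P5 and P10 and after IL1B at P5 and P10, the second -4.07 without replicate 6).

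**Figure D3:**
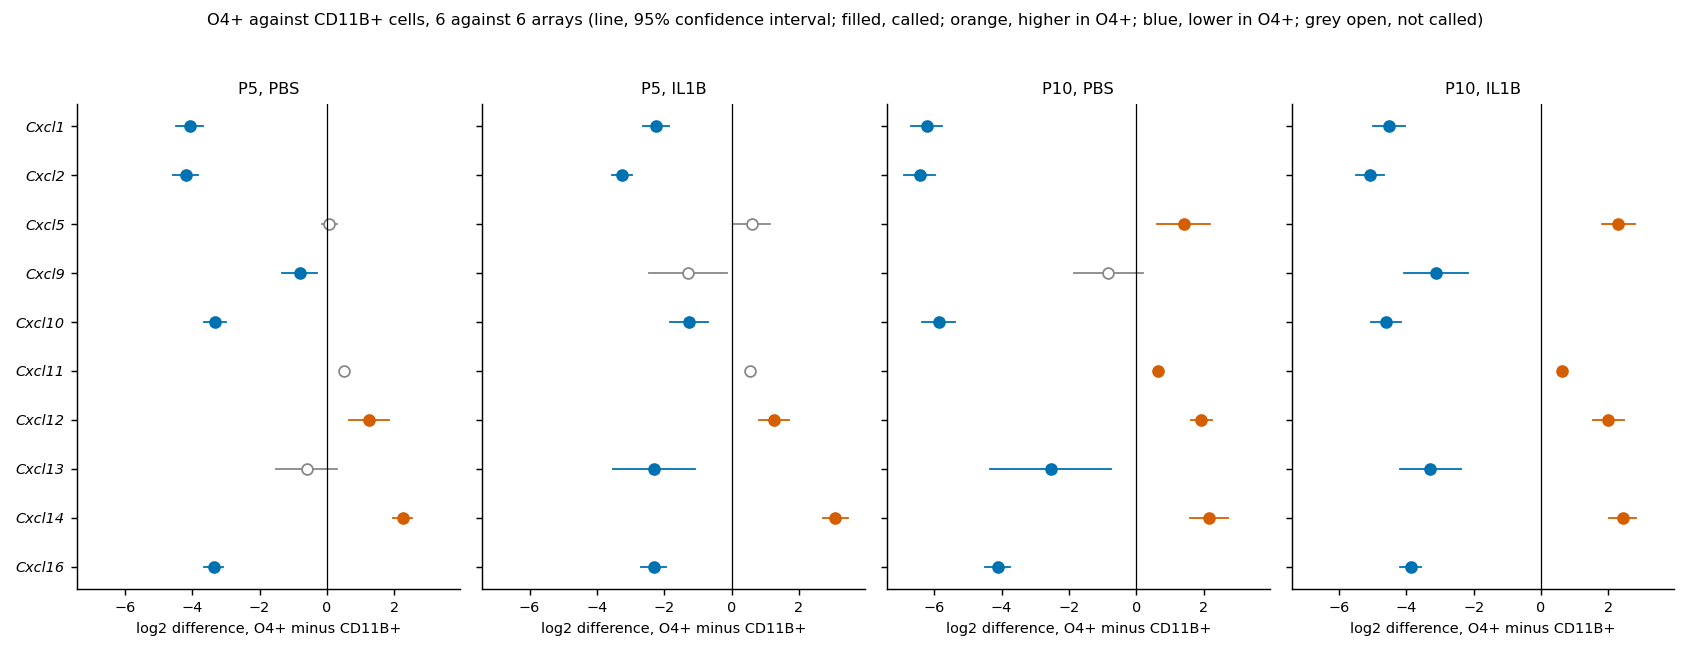
Log2 difference between O4+ and CD11B+ cells (x axis) of the 10 genes, 1 panel for each age and treatment, with 95% confidence intervals and filled points for called genes. Cxcl12 and Cxcl14 lie to the right of 0 in all 4 panels, and Cxcl1, Cxcl2, Cxcl10 and Cxcl16 to the left, with Cxcl2 at -6.43 after PBS at P10.

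Counted over the members, the comparisons of the fractions called 2 higher and 5 lower in O4+ cells after PBS at P5 (19.8% and 21.8% of all probes), 4 and 5 after PBS at P10 (22.2% and 20.2%), 2 and 5 after IL1B at P5 (19.8% and 24.4%) and 4 and 6 after IL1B at P10 (21.9% and 21.0%). The 4 after PBS at P10 include Cxcl11, whose probe cannot be tied to the gene. They also include Cxcl5, below background on all 12 arrays (adjusted p = 0.00586, or 0.0131 without replicate 6 and 0.0662 with the slide as a random block, by limma). Without these, 2 are left, Cxcl12 and Cxcl14, and after IL1B at P10 3 are left without Cxcl11. Cxcl12 was called on its first probe in all 4 comparisons of the fractions and on its second in none. Without replicate 6 the counts after PBS at P10 were also 4 and 5 (22.0% and 20.4%). From P5 to P10 after PBS, 5 members were lower in O4+ cells and none higher (9.14% and 8.09% of all probes), and in CD11B+ cells 4 were lower and 1, Cxcl13, higher (3.47% and 4.49%), or 4 lower and 0 higher without replicate 6 (3.95% and 4.73%).

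The comparison of responses at both ages showed 2 directions among the members. P10 minus P5, 1 member was more positive (Cxcl12) and 4 more negative in O4+ cells (Cxcl5, Cxcl9, Cxcl13, Cxcl16), against 7.97% and 5.48% of all probes. Cxcl1 (0.92) was not called, and was under 75th percentile scaling (adjusted p = 0.0351), in the deposited matrix (0.0245), with quantiles set within a fraction (0.0499), among probes above background (0.0462) and with all 8 groups in 1 fit (0.0302 by limma). Cxcl2 (0.87), also not called, was in the deposited matrix (adjusted p = 0.037), among probes above background (0.0498) and with all 8 groups in 1 fit (0.0225 by limma). Cxcl14 (0.65) was called among probes above background (adjusted p = 0.0465 by limma). The Cxcl11 probe was called more negative under 75th percentile scaling (adjusted p = 0.0165) and in the deposited matrix (0.0428 by limma). In CD11B+ cells 3 were more positive (Cxcl1 with 1.04, or 1.13 without replicate 6, Cxcl12, Cxcl14) and 3 more negative (Cxcl5, Cxcl13, Cxcl16), against 10.4% and 6.15%, and the counts were the same without replicate 6 (10.9% and 7.23%). O4+ minus CD11B+, 5 members were more positive at P5 (Cxcl1, Cxcl2, Cxcl10, Cxcl14, Cxcl16) and none more negative, against 6.93% and 3.78%, and at P10 3 were more positive (Cxcl1, Cxcl2, Cxcl10) and 1 more negative (Cxcl9), against 3.92% and 3.65% (4.40% and 4.35% without replicate 6, with the same counts). These comparisons share arrays with those above and are no separate evidence.

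**Figure D4:**
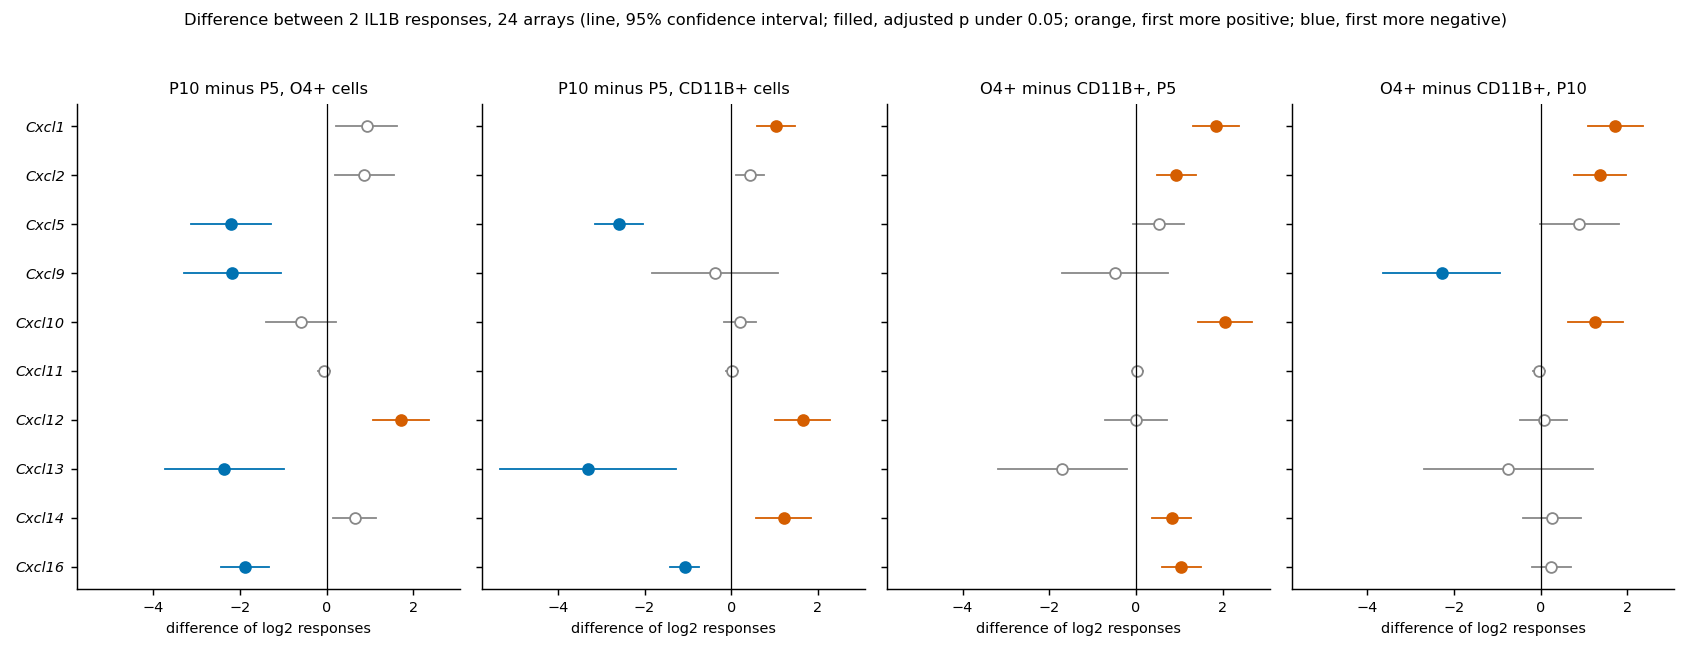
Difference between 2 responses to IL1B (x axis, log2) of the 10 genes, 1 panel for each pair of responses, with 95% confidence intervals and filled points where the adjusted p was under 0.05. Cxcl12 lies at 1.71 in O4+ and 1.65 in CD11B+ cells in the panels of P10 minus P5, where the points of Cxcl5 and Cxcl13 rest on groups at background and show no measured size, while Cxcl1 lies at 1.84 and 1.73 in those of O4+ minus CD11B+.

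Slides that held both groups gave the differences within a slide. In O4+ cells at P5, slide 1 (1 IL1B, 4 PBS arrays) and slide 4 (1 and 2) gave 1.22 and 1.03 for Cxcl1, 3.34 and 3.25 for Cxcl5, 2.61 and 1.98 for Cxcl9, -2.15 and -1.77 for Cxcl12 and 2.91 and 2.98 for Cxcl16. At P10, slide 5 (2 and 5) and slide 9 (1 and 1) gave 2.07 and 2.35 for Cxcl1, 1.71 and 1.97 for Cxcl2, 1.67 and 1.41 for Cxcl10, and 0.56 and 1.02 for Cxcl16. These kept the direction of the pooled values, while Cxcl9, not called there, gave 1.19 and -0.45.

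For CD11B+ cells, slide 4 (4 and 1) at P5 gave -0.41 for Cxcl1, 2.34 for Cxcl5, 3.68 for Cxcl9, -2.30 for Cxcl12, 6.17 for Cxcl13 and 1.67 for Cxcl16, and slide 7 (5 and 2) at P10 gave 1.89 for Cxcl9 and -0.083 for Cxcl14, whose pooled difference was 0.45. One of these PBS arrays was replicate 6. With the slide as a block, fewer arrays carry each difference, and Cxcl1, Cxcl2 and Cxcl9 in O4+ cells at P5 (adjusted p 0.0682 to 0.0762), Cxcl16 in O4+ cells at P10 (0.124), Cxcl1 (0.211) and Cxcl14 (0.287) in CD11B+ cells at P5 and Cxcl9 in CD11B+ cells at P10 (0.498) were no longer called by limma. Of the differences between responses, it ended the calls of Cxcl9 and Cxcl13 (P10 minus P5, O4+ cells), Cxcl1, Cxcl12, Cxcl13 and Cxcl14 (CD11B+ cells), Cxcl2, Cxcl10 and Cxcl14 (O4+ minus CD11B+, P5) and Cxcl9 and Cxcl10 (P10), all in the same direction, with adjusted p from 0.0548 to 0.589.

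Of 8 receptor genes, 3 rose in O4+ cells at P5 and none fell: Cxcr2, the neutrophil receptor of Cxcl1, Cxcl2 and Cxcl5, by 1.34 (adjusted p = 0.0127), Cxcr5, above background on 0 of 6 arrays after PBS and 4 of 6 after IL1B, by a size not measured (adjusted p = 0.0436) and Ackr1, a decoy receptor of endothelium and red cells, by 1.68 (adjusted p = 3.68e-05 by limma). All probes were called higher in 3.49% and lower in 1.51% in this comparison. In O4+ cells at P10 none of the 8 was called. Cxcr2 read 5.13, 5.89 and 6.02 in O4+ cells after PBS and 6.30, 6.99 and 8.45 after IL1B at P5, groups that lay apart.

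In CD11B+ cells at P5 Cxcr2 rose 4.38-fold, from 9.35, 9.64 and 9.78 to 11.45, 11.77 and 11.90 (2.14, adjusted p = 7.57e-08 by limma). Ackr1 rose 14.5-fold (3.85), and Cxcr1 was called higher with all arrays of both groups below background. Cxcr3, the receptor of Cxcl9 and Cxcl10, fell by 0.74 and Ackr3 fell by 1.25. At P10 Cxcr4 rose by 0.79 and Cxcr5 by 0.89, and Cxcr2 fell by 0.64 (adjusted p = 0.0425), each still called without replicate 6 (0.90, 0.84 and -0.65).

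The fractions also differed in receptor levels. After PBS at P5, Cxcr2, Cxcr3, Cxcr4 and Cxcr6 were lower in O4+ than in CD11B+ cells (-3.85, -4.49, -1.23 and -0.73), and Ackr3 and Ackr1 were higher (1.55 and 4.12). Cxcr5 was at least 3.28-fold lower in O4+ cells, where it was above background on 0 of 6 arrays. Cxcr1 was not called (adjusted p = 0.677 by limma), with all arrays of both groups below background. Cxcr6, the receptor of Cxcl16, was not called after IL1B in either fraction at either age.

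**Figure D5:**
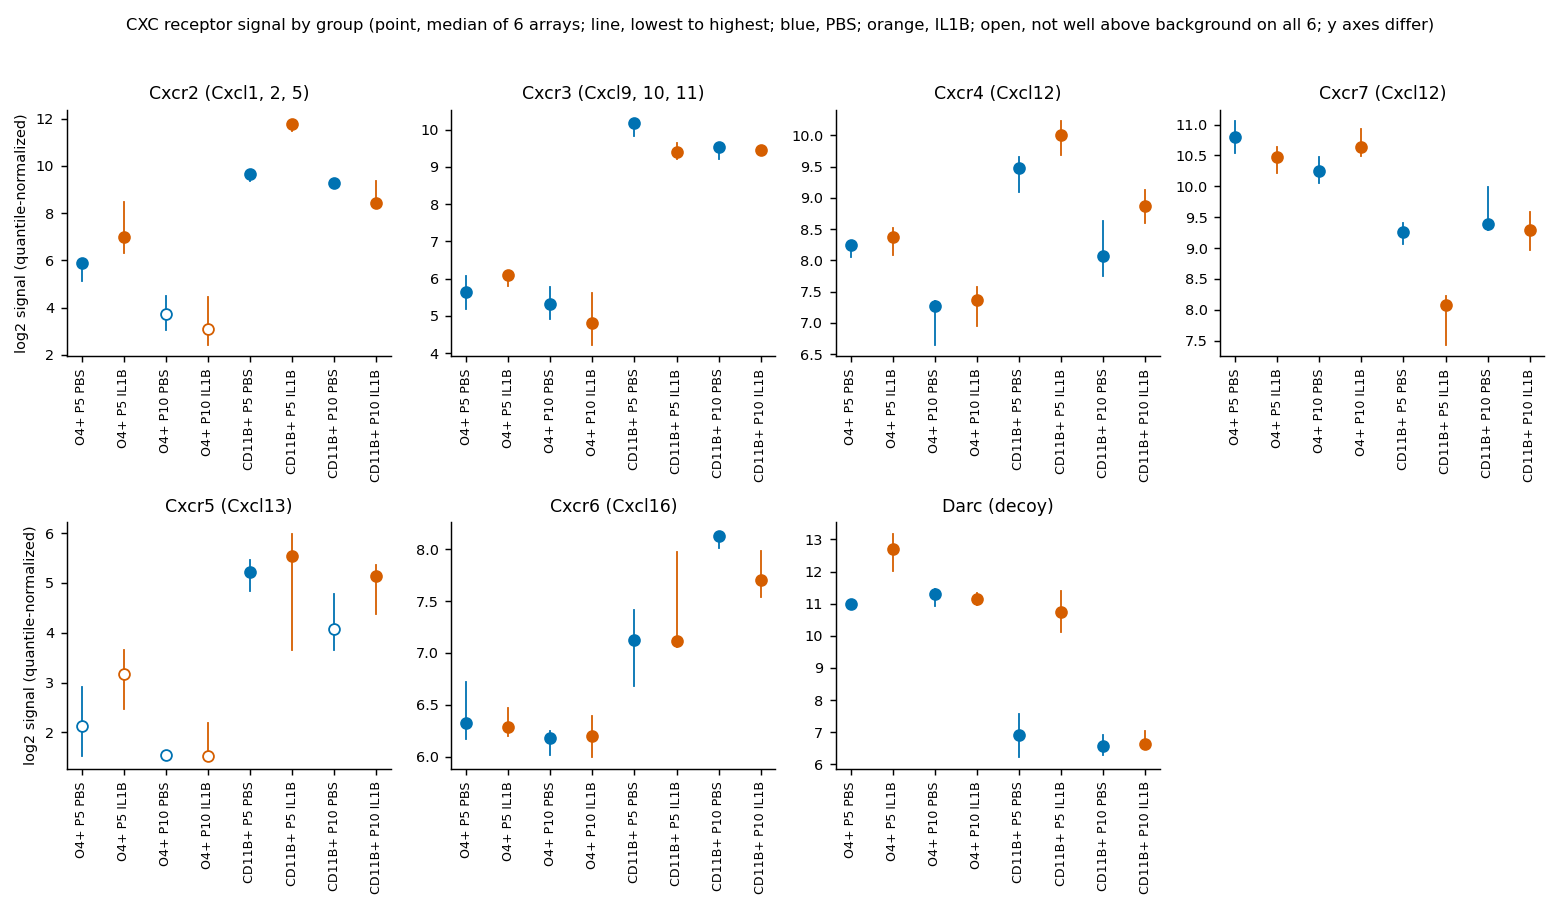
Median log2 signal (points) and range of 6 arrays (lines) of the receptor genes Cxcr2, Cxcr3, Cxcr4, Cxcr7 (Ackr3), Cxcr5, Cxcr6 and Darc (Ackr1) in the 8 groups, blue for PBS, orange for IL1B and open where a group was not well above background on all 6 arrays. Cxcr2 has its highest median, 11.77, in CD11B+ cells after IL1B at P5, and Darc reads 12.71 in O4+ and 10.75 in CD11B+ cells of that treatment and age.

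Among other genes of the pathway, 12 of 20 transcription factors and feedback inhibitors rose in O4+ cells at P5 and none fell (3.49% and 1.51% of all probes). Zc3h12a, an RNase that degrades chemokine mRNAs, rose by 3.25, Cebpb by 2.37, Socs3 by 2.31, and the NF-kB subunits Nfkb2 by 1.66 and Relb by 1.55. At P10 6 of 20 rose in this fraction (2.61% of all probes), among them Tnfaip3, an inhibitor of NF-kB signalling (1.15), and Irf1 (0.87). In CD11B+ cells 11 of 20 rose at P5 (3.98% of all probes), with Zc3h12a at 1.69 and Irf7 at 1.40, and 1, Irf1, at P10 (0.66, 1.02% of all probes), where without replicate 6 2 rose, with Irf1 at 0.73, and 1 fell (2.46% and 2.20%).

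The same shares of all probes stand beside the lists that follow. Of 14 upstream cytokine and receptor genes, 9 rose in O4+ cells at P5, with Il6 at 1.76 and Il1r1, the receptor of IL1B, at 1.29, and 2 rose at P10, Tnf (1.47) and Il6, above background on none of 6 arrays after PBS and 2 of 6 after IL1B. In CD11B+ cells 7 rose at P5, with Ifng at 4.05, above background on 3 of 6 PBS arrays, and Il1rn at 2.15, while Tnf fell by 0.65, and at P10 Ifng and Tnf rose (Tnf by 0.88, or 0.93 without replicate 6, when 3 of 14 rose). Of 8 proteases that cut CXC chemokines, 2 rose and Dpp4 fell (-1.44) in O4+ cells at P5, 1 rose at P10, and 5 rose in CD11B+ cells at P5, with Ctsg, a neutrophil protease, at 3.50, and Dpp4 at P10 (0.92, or 1.11 without replicate 6, when 2 of 8 rose). Of 5 other CXC ligands, Cxcl3 was called, and in CD11B+ cells at P5 alone (2.67, a 7.76-fold rise).

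The genes with the most similar levels over the 48 arrays were found among 15335 genes by Pearson's r, as a description in which fraction, age and treatment are shared by all points. Cxcl1 was most like Cxcl2 (0.993), followed by the immediate early gene Egr1 (0.981) and the chemokine Ccl3 (0.980). This pair also went together within the 24 arrays of O4+ cells (0.992). Cxcl9 was most like the interferon-induced GTPase gene Gbp1 (0.928), Cxcl10 like the adhesion molecule gene Icam1 (0.988), Cxcl5 like Rnf125 (0.902) and Cxcl16 like Igsf6 (0.994). Cxcl12 was most like 3 genes of vessels, Ptprb (0.966), Sox18 (0.955) and Slco1a4 (0.952), while Cxcl14 was most like Ctxn1 (0.986) and Cxcl13 like the complement gene C4b (0.836), the lowest of these values.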

How the data were processed

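RNA of 48 samples was hybridised to one-colour Agilent 8x60K mouse arrays. The authors deposited the scanner output of each array, whose intensity values were, per the file headers, background-subtracted and detrended by Agilent Feature Extraction 10.7.3.1, with probes placed on build mm9. The deposited matrix holds a ratio, the signal of a spot over the median of its array, and served as an alternative. Groups were taken from the sample labels.

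Signals were put on the log2 scale without 278 non-uniform and all control spots, quantile-normalised over the 48 arrays, with the mean taken where a probe had several spots (59305 spots, 55681 probes), using R 4.3.3 and data.table (version 1.17.8). Limma 3.58.1 was fitted over all probes, on 12 arrays for 2 groups and on 24 for a difference between responses, with Benjamini-Hochberg adjustment. Calls needed an adjusted p under 0.05 and group medians more than 1.5-fold apart, as in the study's methods, with limma in place of the methods' equal-variance test, and a difference between responses at an adjusted p under 0.05. The number of arrays limits the precision, and no counts exist. Replicates are pools of brains, so p-values measure the spread between pools. Fits were tried on simulated data with independent noise and no slide, scan day or pairing effects, which says nothing on those effects.

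A probe that was not well above background on any array of a group has only a bound there, the higher of its own signal and the lowest signal well above background. The named genes are the 10 members with all their probes and the genes of the receptor, other ligand, transcription factor, cytokine and protease lists. From the lists, receptors are given in full and other genes as examples. The nearest genes by Pearson's r are named too. Members, lists and examples were chosen with earlier results of these data known. Lists of markers covered microglia, border-associated macrophages, neutrophils and monocytes, T and NK cells, astrocytes, endothelial cells, mural cells and fibroblasts, neurons, oligodendrocytes and erythroid cells.

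The labels number the replicates 1 to 6 in every group, and by the methods both fractions came from the same brains. Over 24540 probes, the deviations of same-numbered samples correlated at 0.27 to 0.71 in the comparison of the fractions after IL1B at P10. The lowest of the 6 pairs was 0.042 between the fractions after PBS at P5 and 0.087 between the treatments in O4+ cells at P5, and below 0 in the other comparisons. The highest value of any pair was 0.82, between the treatments in O4+ cells at P10, where same-numbered samples are different animals. O4+ arrays correlated best with the CD11B+ array of their own number in 5 and 4 of 6 cases after PBS at P5 and P10. After IL1B this held in 2 of 6 at P5 and 6 of 6 at P10, and between treatments or ages in 0 to 3 of 6. The main fits did not use this pairing. Alternatives were scaling, normalisation within a fraction, normexp, filters, the methods' test, thresholds, all groups in a fit, slide, scan day and replicate blocks, the next brightest probe and each array left out. The array that stood apart and the scaling of all probes were looked at after seeing the data, as were counts without Cxcl11 and lists without that array. Figures were drawn with Python 3.11.15, pandas 2.3.3 and matplotlib 3.10.9.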

Additional observations from a re-analysis of the deposited data

Results flagged for a closer look

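Single arrays stood apart in 10 of 80 sets of 6 arrays by Dixon's test, which sets the gap to the nearest array against the range of the group. Chance gives about 1 in 20 for normally spread values, and this rate was not checked for groups at background. In CD11B+ cells after PBS at P10, replicate 6 was highest for Cxcl9 (8.48) and Cxcl1 (11.82), and replicate 3 for Cxcl5 (2.34, below background). After PBS at P5 the same fraction held the highest values for Cxcl14 in replicate 5 (10.11), Cxcl13 in replicate 1 (4.26, below background) and Cxcl9 in replicate 3 (6.83). The others were Cxcl13 in replicate 1 of O4+ cells after PBS at P5 (1.89, below background), Cxcl9 in replicate 1 of O4+ cells after IL1B at P10 (6.87), Cxcl5 in replicate 5 of CD11B+ cells after IL1B at P10 (2.46, below background) and, as the lowest of its group, Cxcl11 in replicate 6 of O4+ cells after PBS at P10 (17.91).

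Responses to IL1B differed between groups, by a test of the difference itself in limma, in 20 of 40 tests. For P10 minus P5, 7.97% of all probes were more positive and 5.48% more negative in O4+ cells, and 10.4% and 6.15% in CD11B+ cells. For O4+ minus CD11B+ these shares were 6.93% and 3.78% at P5 and 3.92% and 3.65% at P10. The tests share arrays and include the Cxcl11 probe, which cannot be tied to its gene. With the slide as a block several of these calls ended, as given above. Between P10 and P5 in O4+ cells the differences were 1.71 for Cxcl12, -2.36 for Cxcl13, -1.88 for Cxcl16, -2.17 for Cxcl9 and -2.21 for Cxcl5. Between the ages in CD11B+ cells they were 1.65 for Cxcl12, 1.21 for Cxcl14, 1.04 for Cxcl1, -3.31 for Cxcl13, -1.08 for Cxcl16 and -2.58 for Cxcl5. Between O4+ and CD11B+ cells at P5 they were 0.82 for Cxcl14, 0.93 for Cxcl2, 1.84 for Cxcl1, 1.05 for Cxcl16 and 2.06 for Cxcl10, and at P10 they were 1.36 for Cxcl2, 1.73 for Cxcl1, -2.29 for Cxcl9 and 1.26 for Cxcl10. For Cxcl5 and Cxcl13 between the ages, groups at background leave these sizes unmeasured. On the second probe of Cxcl12 neither difference between the ages was called. The ages share no slide or scan day, so that age and batch cannot be told apart.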

How the results depend on the processing

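Of 83 called member results, 44 were called under every setting and with every array left out. With slide as a fixed block the number of called members was 5 in O4+ cells at P5 (8 without it), 0 in CD11B+ cells at P10 (1), 3 and 2 for P10 minus P5 in O4+ and CD11B+ cells (5 and 6), and 2 each for O4+ minus CD11B+ at P5 and P10 (5 and 4). It used fewer arrays. In CD11B+ cells at P10 the count was 2 under 75th percentile scaling, the deposited matrix, no fold threshold and the next brightest probe. The deposited matrix gave 8 for P10 minus P5 in O4+ cells, the next brightest probe gave 2 for O4+ minus CD11B+ at P10, and scan day as a random block gave 3 for P10 against P5 in CD11B+ cells (5). Normexp ended 8 calls and added 2, without moving these counts by more than 1.5-fold. The cause was not tested.

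Directions turned on the next brightest probe for Cxcl10 in CD11B+ cells at P5 (-0.83) and Cxcl12 in CD11B+ cells at P10 (0.98), for Cxcl12 between P10 and P5 in O4+ cells (-1.48), and, between the fractions, for Cxcl11 after PBS at P10 (-0.39) and Cxcl12 after IL1B at P5 (-0.091) and P10 (-0.44). Cxcl11 between the fractions after IL1B at P10 turned under 75th percentile scaling (-0.25) and in the deposited matrix (-0.42), and measured from the median of all probes it did not.

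Same-numbered samples can share brains between the fractions, but not between treatments or ages, where a replicate block matches no pairing. With the replicate number as a block, 80 of 83 calls were kept. It ended those of Cxcl9 in CD11B+ cells at P10 (adjusted p = 0.0665 by limma, so 0 called), Cxcl13 between the ages in CD11B+ cells (0.0589) and Cxcl14 between the ages in O4+ cells (0.0709), and added Cxcl2 for P10 minus P5 in CD11B+ cells and Cxcl9 between the fractions after IL1B at P5.

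With each array left out in turn the called members numbered 8 to 8 and 3 to 5 in O4+ cells at P5 and P10, 6 to 7 and 0 to 2 in CD11B+ cells, 4 to 6 and 4 to 5 between the ages in O4+ and CD11B+ cells, 7 to 7 and 9 to 9 between the fractions after PBS at P5 and P10, 7 to 9 and 9 to 10 after IL1B, 5 to 6 and 6 to 7 for P10 minus P5 in O4+ and CD11B+ cells, and 5 to 6 and 3 to 4 for O4+ minus CD11B+ at P5 and P10. No called result turned direction in these, and uncalled ones had the other sign in 32 of 2160 refits of a member. The call of Cxcl9 for O4+ minus CD11B+ at P10 ended without any of 11 arrays, CD11B+ PBS replicates 1 to 5, O4+ IL1B replicates 2 to 5 and O4+ PBS replicates 2 and 6 (adjusted p 0.051 to 0.0603 by limma), and leaving out replicate 1, 2 or 6 of O4+ cells after IL1B ended that of Cxcl11 between the fractions there.

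Between the fractions, other scalings moved the median of all probes by -0.54 to 0.14, and the share of calls that were higher went from 47.5% to 34.5% and 63.4% after PBS at P5, from 52.3% to 65.2% at P10, from 44.8% to 25.7% and 60.6% after IL1B at P5 and from 51.1% to 29.8% and 64.4% at P10. For the responses it went from 59.3% to 37% and from 62.9% to 82.6% for P10 minus P5 in O4+ and CD11B+ cells and from 51.8% to 14.9% for O4+ minus CD11B+ at P10. No called member changed direction against that median.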
